A study of Mus musculus with 51 samples.

Results

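The BCL2 family decides whether the outer membrane of the mitochondrion is opened during apoptosis. Its pro-survival proteins, such as BCL2, BCL-XL (gene Bcl2l1) and MCL1, hold the pore-forming effectors BAX (gene Bax) and BAK (gene Bak1) in check. The BH3-only proteins, such as BIM (gene Bcl2l11), NOXA (gene Pmaip1), PUMA (gene Bbc3), BID (gene Bid) and BIK (gene Bik), either occupy the pro-survival proteins or act on the effectors directly, and several members of the family are known to be tagged with ubiquitin and degraded by the proteasome. These 10 genes were chosen by symbol out of 40077 genes in the expression tables, and all 10 were found.

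RNA was sequenced in 51 libraries of a mouse study of UBA1, the enzyme that activates ubiquitin at the head of the ubiquitination cascade. Myc-CaP is a mouse prostate carcinoma line of the FVB strain, grown under the skin of male FVB mice, and B16-BL6 is a mouse melanoma line grown in female C57BL/6 mice, with mice of 6 to 8 weeks of age. The B16-BL6 tumors carried a control guide RNA (sgNC, 3 tumors) or a guide against Uba1 (sgUba1, 4 tumors), and the Myc-CaP tumors carried sgNC (3 tumors) or sgUba1 (7 tumors). Further Myc-CaP tumors carried an empty vector (EV, 3 tumors) or a Uba1 overexpression vector under a CMV promoter (Uba1 OE, 4 tumors), or came from mice given vehicle (6 tumors) or the UBA1 inhibitor TAK-243 (5 tumors, 25 mg/kg into a vein, 2 doses a week). Cultured Myc-CaP cells were left untreated, given 50 nM TAK-243, 1 ng/mL interferon gamma (IFN-γ) or both for 18 hours, or carried sgNC or sgUba1 and were given PBS or IFN-γ, with 2 libraries for each of these 8 groups. The sgUba1 lines were grown out from single cells and keep part of their Uba1, so that a line is 1 clone. Traits of a clone cannot be told apart from the effect of its guide. The study used 2 guides against Uba1, and the labels do not say which of them a tumor carried. Tumors were injected on 2 flanks, so that some may share a mouse. Labels do not say whether the cell libraries came from separate cultures, so that p-values measure the spread between these samples, which may be technical.

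Total expected counts ran from 8652097 to 38032395 per library. The RNA of Uba1, the targeted gene, was set beside the labels. In the B16-BL6 tumors it had 409, 454 and 414 CPM (counts scaled to the size of the library) with sgNC and 208, 220.1, 228 and 247 CPM with sgUba1, and in the cells 533 and 525 CPM with sgNC and 295 and 283 CPM with sgUba1. In the Myc-CaP tumors it had 319, 325 and 337 CPM with sgNC, and replicates 1 to 7 of those labelled sgUba1 gave 197, 202, 210.2, 373, 361, 368 and 383 CPM. Replicates 4 to 7 therefore lay above every control in CPM, and for these tumors sgUba1 stands for the label of the library. The paper judged depletion in its lines by immunoblot and Sanger sequencing, not by RNA. The RNA level alone does not show whether UBA1 protein was depleted in these tumors. In the authors' TPM, the deposited values scaled for transcript length and library size, controls ran from 120.6 to 130.8. The 7 tumors labelled sgUba1 ran from 83.7 to 141 TPM with a median of 125.6 TPM. Not all of replicates 4 to 7 therefore lay above every control on that scale. The 7 also fell into 2 sets over all genes. The chi-square of their counts, divided by its degrees of freedom, was 55.9 to 79.4 between any of replicates 1 to 3 and any of 4 to 7 but 8.96 to 20.8 within either set. Uba1 OE tumors had 729, 629, 721 and 746 CPM against 309.7, 278 and 291 CPM with EV. The summed level of 7 melanocyte markers lay between 12477 and 16306 CPM in the B16-BL6 tumors and between 10.5 and 32.5 CPM in all other libraries. In the cells, 8 epithelial and prostate markers summed to between 2649 and 4437 CPM, but the prostate gene Pbsn was at 0 counts in all 8 cell groups.

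The sequences before a transcription start are shown for 3 of the members that TAK-243 changed in the cells below. Bcl2l11 and Bbc3 are known targets of FOXO factors, which bind the forkhead letters TGTTTAC, and Bcl2 is shown beside them because it changed in the other direction. The printed Bcl2l11 and Bbc3 windows were picked because they hold these letters, and windows of other members that changed are not printed. The 3 lines are therefore examples, and a part of FOXO factors in the changes was not tested. The windows are from RefSeq on GRCm38.p6, each is printed from 5′ to 3′ on the strand of its gene, and capitals mark TGTTTAC or its reverse complement. The first 2 lines are the window of Bcl2l11 (chr2:128125788-128126037, plus strand, 250 to 1 bases before the start) and a stretch of 1 of 3 Bbc3 windows (chr7:16310014-16310180, plus strand, 247 to 81 bases before that start), and the last is the window of Bcl2 (chr1:106714291-106714540, minus strand, 250 to 1 bases before the start). The Bbc3 stretch lies inside the gene as annotated (chr7:16308393-16318205, plus strand), before an internal start.
Bcl2l11: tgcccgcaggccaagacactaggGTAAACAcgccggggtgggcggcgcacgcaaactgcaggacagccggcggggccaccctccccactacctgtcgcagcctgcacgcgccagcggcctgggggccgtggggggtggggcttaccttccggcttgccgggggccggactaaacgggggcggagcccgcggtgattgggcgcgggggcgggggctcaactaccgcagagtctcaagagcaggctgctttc
Bbc3: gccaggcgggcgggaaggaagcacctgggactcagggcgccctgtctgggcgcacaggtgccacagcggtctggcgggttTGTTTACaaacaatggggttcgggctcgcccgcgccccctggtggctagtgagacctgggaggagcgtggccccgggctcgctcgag
Bcl2: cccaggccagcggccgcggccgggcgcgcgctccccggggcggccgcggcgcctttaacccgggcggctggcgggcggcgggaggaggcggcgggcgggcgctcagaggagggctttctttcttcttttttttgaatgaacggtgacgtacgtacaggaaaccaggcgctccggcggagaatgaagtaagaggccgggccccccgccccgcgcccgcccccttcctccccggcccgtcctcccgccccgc
Pmaip1 was left out of the search, and no window was found for Bik, so that neither gene is covered below. Of 13 windows searched for the other 8 members, 2 held the forkhead letters within 250 bases before the start, at 227 bases in Bcl2l11 and at 167 bases in Bbc3, against 3.17% of all 32851 windows. The E-box CACGTG, a site of MYC-type factors, was found in Bax at 9 bases and in another window of Bbc3 at 64 bases (6.02% of all windows), and a p53 half-site was found in Bax at 201 bases (7.13%). None of the 13 windows searched held the letters TTGCATCA of ATF4 and CHOP (0.791%), TTCNNNGAA of STAT factors (7.02%) or TGACGTCA of CREB-type factors (1.55%). Both strands were searched, overlaps between motifs were not removed, and a match is a description of the letters only.

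TAK-243 changed members of each role in cultured Myc-CaP cells. The BH3-only genes Pmaip1, Bbc3 and Bcl2l11 rose, the pro-survival genes Bcl2 and Bcl2l1 fell, and Bid and Bax fell as well. In all, 3 members were higher and 4 lower among 10 tested by edgeR (quasi-likelihood test, p-values adjusted after Benjamini and Hochberg), where 66.3% of all genes tested were called at an adjusted p under 0.05 (32.3% higher and 34% lower), so that the count of 7 members is near the background. The median absolute log2 fold change of the members was 0.82 against 0.53 over all genes tested.

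Pmaip1 encodes NOXA, the BH3-only protein that binds MCL1. It had 32.9 and 34.00 CPM in untreated cells and 182 and 197 CPM with TAK-243 (log2 fold change 2.5, SE 0.051, adjusted p = 2.49e-26), a 5.65-fold rise. With IFN-γ in both arms it had 26.2 and 27.3 CPM without and 179 and 175 CPM with the drug (log2 fold change 2.73, SE 0.054, adjusted p = 8.68e-27). The groups did not overlap in either setting, and no member had a larger fold change with the drug. The groups of 9 members did not overlap without IFN-γ, against 81% of all genes, and those of 9 with it, against 82.6%, so that the lack of overlap is common here. With IFN-γ, 3 members were higher and 5 lower, where 68.2% of all genes were called (32% higher and 36.2% lower).

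Bbc3, which encodes PUMA and is known as a p53 and FOXO target, went from 2.36 and 1.06 CPM to 7.48 and 6.09 CPM (log2 fold change 2.0, SE 0.25, adjusted p = 4.43e-08). These are few reads, 37 and 17 expected counts in the untreated libraries and 122 and 76 with the drug, and without 1 untreated library the log2 fold change was as low as 1.52 or as high as 2.67. With IFN-γ it went from 3.38 and 4.08 CPM to 6.82 and 6.13 CPM (log2 fold change 0.79, SE 0.22, adjusted p = 0.00252), from a higher level without the drug. Bcl2l11, which encodes BIM, rose from 30.5 and 27.9 CPM to 67.9 and 69.98 CPM (log2 fold change 1.24, SE 0.071, adjusted p = 1.44e-15), and with IFN-γ from 36.6 and 32.4 CPM to 73.4 and 72.99 CPM (log2 fold change 1.09, SE 0.069, adjusted p = 1.40e-14). All drug-treated libraries lay above all others for these 3 genes within each IFN-γ setting.

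Among the pro-survival genes, Bcl2 fell from 21.6 and 23.02 CPM to 9.69 and 10.02 CPM with TAK-243 (log2 fold change -1.18, SE 0.11, adjusted p = 5.64e-11) and, with IFN-γ, from 20.97 and 21.2 CPM to 10.05 and 9.57 CPM (log2 fold change -1.11, SE 0.11, adjusted p = 2.33e-10). Bcl2l1, which encodes BCL-XL, fell from 153 and 155 CPM to 98.02 and 102 CPM (log2 fold change -0.62, SE 0.043, adjusted p = 8.00e-14) and with IFN-γ from 177 and 177 CPM to 114 and 104 CPM (log2 fold change -0.69, SE 0.041, adjusted p = 2.95e-15). Mcl1, whose protein is short-lived and a known proteasome substrate, had 198 and 201 CPM without and 202 and 208 CPM with the drug, a log2 fold change of 0.038 (95% confidence interval -0.033 to 0.11). With IFN-γ it was -0.017 (95% confidence interval -0.087 to 0.054), so that of the 3 pro-survival genes only Mcl1 did not pass the test in either setting.

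The remaining BH3-only and effector genes were lower or did not pass. Bid, the BH3-only protein that links death receptors to mitochondria, fell from 17.99 and 19.96 CPM to 11.03 and 9.38 CPM (log2 fold change -0.88, SE 0.12, adjusted p = 1.03e-07) and by a like amount with IFN-γ (-0.75). The effector gene Bax fell from 41.01 and 42.1 CPM to 38.1 and 29.9 CPM (log2 fold change -0.28, SE 0.085, adjusted p = 0.00528), a call that was lost without TAK-243 replicate 2 (log2 fold change −0.17, adjusted p = 0.0898), and with IFN-γ it fell by 0.49 on the log2 scale (adjusted p = 4.88e-06). The other effector gene, Bak1, had a log2 fold change of 0.0075 (95% confidence interval -0.12 to 0.13) without IFN-γ and fell with it (log2 fold change -0.25, SE 0.058, adjusted p = 3.87e-04). Bik had 1.28 and 1.25 CPM and 1.72 and 2.65 CPM and did not pass (log2 fold change 0.76, SE 0.34, adjusted p = 0.0533) except without TAK-243 replicate 1 (log2 fold change 1.0, adjusted p = 0.0325).

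**Figure D1:**
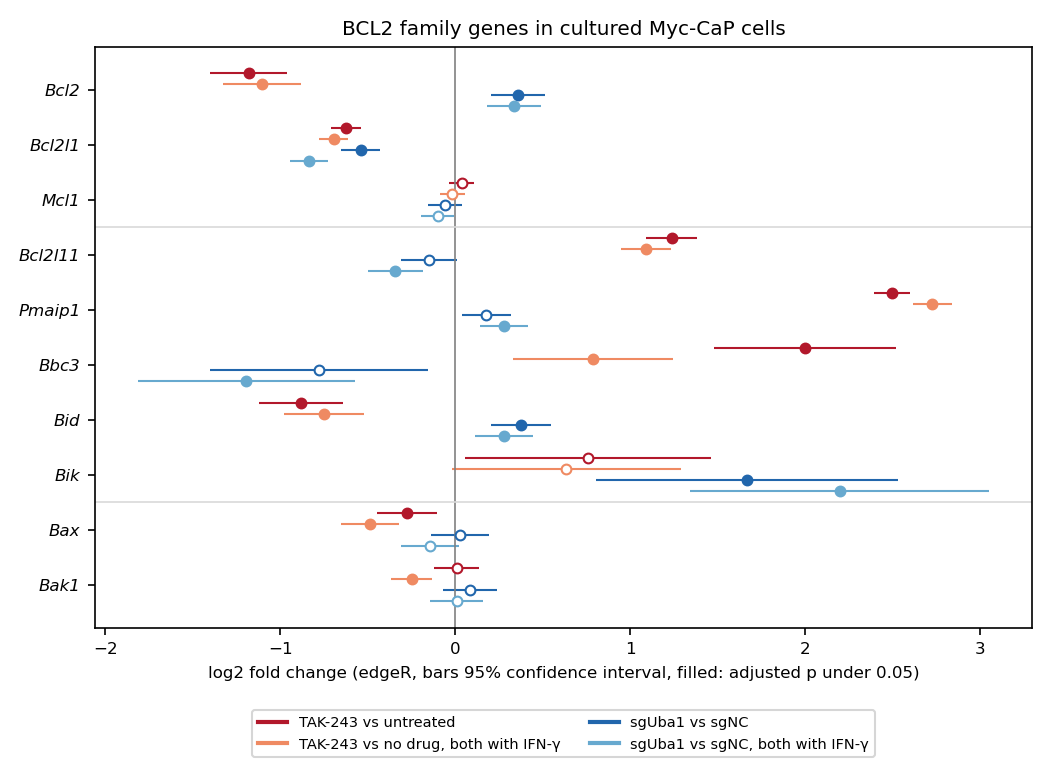
Log2 fold change of each BCL2 family gene (rows, grouped as pro-survival, BH3-only and effector) in 4 comparisons of cultured Myc-CaP cells, 2 libraries a group, with 95% confidence intervals. TAK-243 gave 2.5 for Pmaip1 and −1.18 for Bcl2, whereas sgUba1 gave 0.36 for Bcl2, and Bcl2l1 lay below 0 in all 4.

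With sgUba1, 4 members changed in the cells. Bik, Bid and Bcl2 were higher and Bcl2l1 lower than in sgNC cells, so that 4 of 10 members passed against 29.7% of all genes tested (16.2% higher and 13.6% lower). With IFN-γ in both arms, Bik, Bcl2, Bid and Pmaip1 were higher and Bcl2l1, Bbc3 and Bcl2l11 lower, 7 of 10 against 39.4% of all genes (17% higher and 22.4% lower). After Bonferroni adjustment over all genes, only Bcl2l1 remained in each setting.

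Bcl2l1 had 229 and 237 CPM in sgNC cells and 157 and 164 CPM in sgUba1 cells (log2 fold change -0.54, SE 0.050, adjusted p = 2.21e-05). With IFN-γ the values were 263 and 268 CPM and 145 and 153 CPM (log2 fold change -0.83, SE 0.050, adjusted p = 6.33e-07). Bcl2 went the other way, from 26.5 and 24.4 CPM to 32.4 and 32.8 CPM (log2 fold change 0.36, SE 0.071, adjusted p = 0.00281), and Bid rose from 14.2 and 12.8 CPM to 17.5 and 17.5 CPM (log2 fold change 0.37, SE 0.078, adjusted p = 0.00396). None of these groups overlapped, as was true of 8 members without and 9 with IFN-γ, against 60.5% and 70.8% of all genes.

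Bik, an ER-anchored BH3-only gene, had the largest fold change of the members but few reads. It had 0.516 and 0.425 CPM (14 and 13 expected counts) with sgNC and 1.61 and 1.38 CPM (57 and 49 expected counts) with sgUba1 (log2 fold change 1.67, SE 0.39, adjusted p = 0.00773). The call was lost without sgUba1 replicate 1 (adjusted p = 0.0548) and held with IFN-γ (log2 fold change 2.2, SE 0.39, adjusted p = 8.99e-04), where no left-out library ended it. Bbc3 had 1.4 and 1.83 CPM and 0.9304 and 0.959 CPM and did not pass without IFN-γ (log2 fold change -0.78, SE 0.28, adjusted p = 0.06), although it did without the filter on low counts (adjusted p = 0.0314) and without sgNC replicate 1 or either sgUba1 IFN-γ library (adjusted p from 0.0373 to 0.0433). It was lower with IFN-γ, at 1.71 and 1.84 CPM and 0.575 and 0.976 CPM (log2 fold change -1.19, SE 0.28, adjusted p = 0.00559), except without sgUba1 IFN-γ replicate 1, where the log2 fold change was −0.81. Pmaip1 and Bcl2l11 changed by 0.28 and −0.34 on the log2 scale with IFN-γ and did not pass without it (0.18 with an adjusted p of 0.0575 for Pmaip1, −0.15 with 0.144 for Bcl2l11). Pmaip1 did pass with the replicate block (adjusted p = 0.0499). In the presence of IFN-γ, the Pmaip1 call was lost without sgNC IFN-γ replicate 1, the Bid call without either sgNC IFN-γ library and the Bcl2l11 call without sgUba1 IFN-γ replicate 2. Mcl1, Bax and Bak1 passed in neither setting, with log2 fold changes between −0.14 and 0.086. With IFN-γ, Mcl1 (−0.10) and Bax (−0.14) did pass when only the 4 libraries compared were fitted or when either sgNC library was left out. Without IFN-γ, Bak1 passed without sgNC replicate 2 (log2 fold change 0.22, adjusted p = 0.0043).

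The effects of the drug and of sgUba1 were set against each other in 1 fit of both cell experiments, which share no library. TAK-243 minus sgUba1 differed for 6 of 10 members, with 55.3% of all genes called (25.2% higher and 30.2% lower). The difference was -1.56 (SE 0.12, adjusted p = 7.55e-10) for Bcl2 and -1.28 (SE 0.14, adjusted p = 1.81e-07) for Bid, genes that fell with the drug and rose with sgUba1. It was 2.3 (SE 0.080, adjusted p = 1.87e-14) for Pmaip1, 1.37 (SE 0.10, adjusted p = 6.32e-10) for Bcl2l11 and 2.76 (SE 0.42, adjusted p = 1.13e-05) for Bbc3. For Bax it was -0.33 (SE 0.12, adjusted p = 0.0333), and that call was lost without any of 4 of the 16 libraries (untreated replicate 2, TAK-243 replicate 2, sgNC replicate 2 or sgUba1 replicate 1). Bcl2l1, lower under both, had a difference of -0.10 (95% confidence interval -0.25 to 0.041), an interval that leaves room for a small difference. The 2 perturbations were read in separate experiments and differ in duration, so that drug and experiment cannot be told apart here. The sgUba1 effect also holds any difference between the sgUba1 clone and the sgNC line, which cannot be told apart from the guide.

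**Figure D2:**
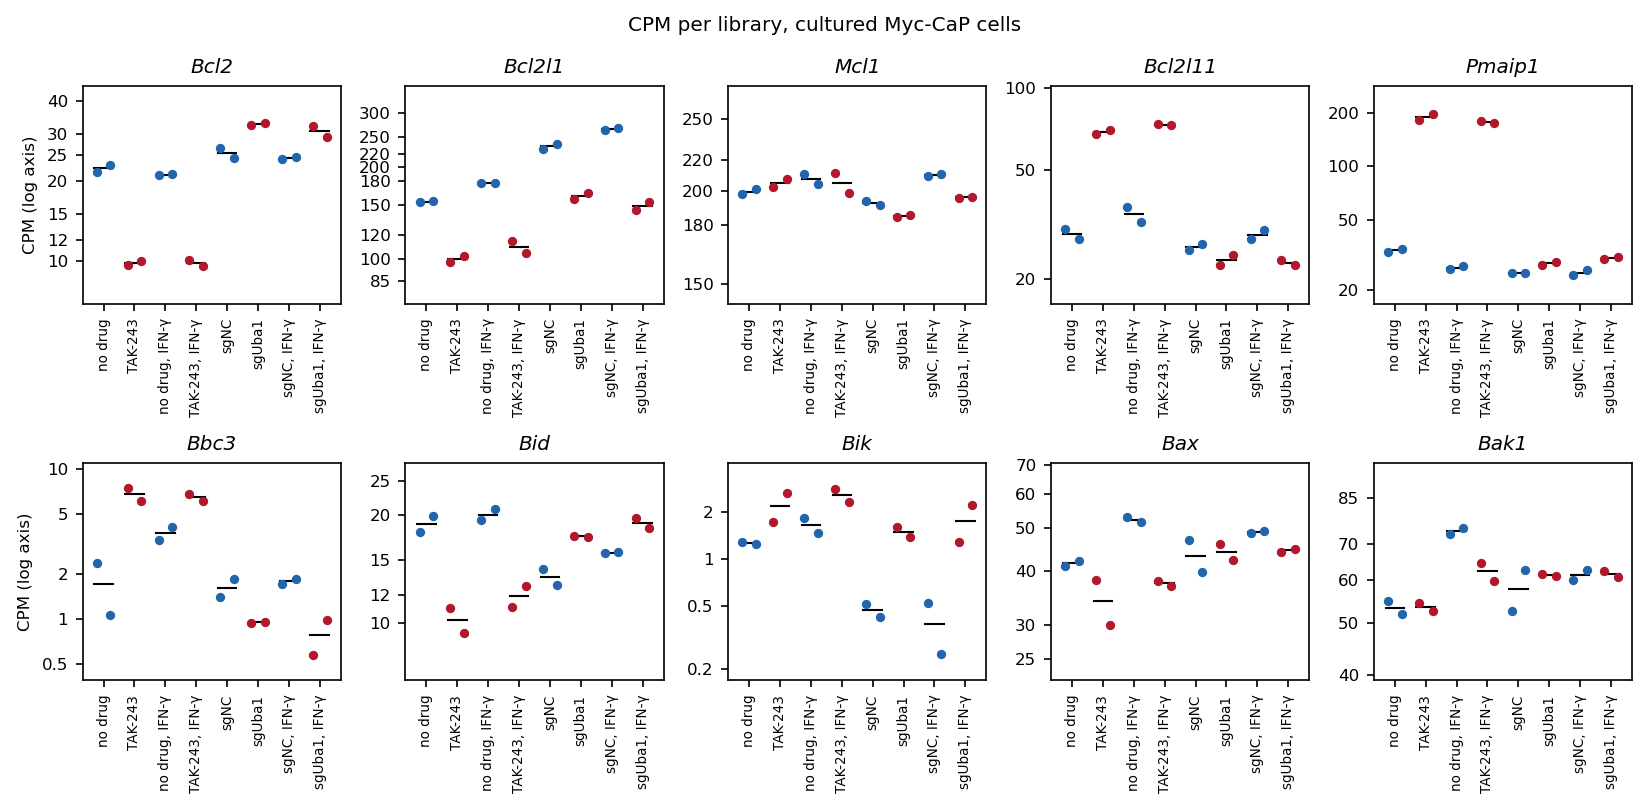
CPM of each gene in every library of cultured Myc-CaP cells (points, 2 a group, blue without and red with TAK-243 or sgUba1; black lines are group means; log axis, which differs between panels). Pmaip1 stands at 175 to 197 CPM in the 4 TAK-243 libraries and at 24.2 to 34.0 CPM in the other 12.

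IFN-γ alone changed 6 of 10 members in the untreated cells, where 29% of all genes were called (19.6% higher and 9.39% lower), and none of 10 in the sgNC cells by edgeR, where 3.88% of genes were called (3.03% higher and 0.856% lower), 4 members had an unadjusted p under 0.05 and DESeq2 called 0 members. The groups of 9 members did not overlap in the untreated cells and those of 5 in the sgNC cells, against 63.1% and 50.9% of all genes. In the untreated cells, Bak1 rose from 54.8 and 51.8 CPM to 72.98 and 74.7 CPM (log2 fold change 0.47, SE 0.059, adjusted p = 3.90e-07), Bax rose from 41.01 and 42.1 CPM to 53.1 and 51.7 CPM (log2 fold change 0.33, SE 0.080, adjusted p = 0.00186), and Bbc3 rose from 2.36 and 1.06 CPM to 3.38 and 4.08 CPM (log2 fold change 1.13, SE 0.28, adjusted p = 0.00252). Bcl2l1 rose by 0.20 and Pmaip1 fell by 0.32 on the log2 scale, with adjusted p-values of 2.48e-04 and 6.64e-04. Bcl2l11 (0.24, adjusted p = 0.0213) lost its call without any of 6 of the 8 libraries and by DESeq2, and Bbc3 lost its call without untreated replicate 2 (log2 fold change 0.66) or IFN-γ replicate 2 and had a log2 fold change of 1.81 without untreated replicate 1.

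The change in CPM was not seen for every gene in the authors' TPM, the deposited values scaled for transcript length and library size. Bcl2l1 had 119 and 117 TPM without and 116 and 116 TPM with IFN-γ, and Bak1 36.4 and 34.6 TPM and 41.5 and 42.3 TPM. Bbc3 ran from 1.36 to 3.96 TPM without and from 2.95 to 3.82 TPM with IFN-γ, so that its groups overlapped. Those of Bcl2l11 overlapped as well, at 10.5 to 13.04 TPM and 10.9 to 12.5 TPM. By group means, Bax rose from 92.2 to 98.96 TPM and Pmaip1 fell from 19.7 to 13.4 TPM. In sgNC cells, the log2 value of Bcl2l1 was 0.19 (adjusted p = 0.0605), and it passed by limma-voom (adjusted p = 0.0487), without the filter on low counts and with the replicate block. Without sgNC replicate 1, 4 members passed there (Bcl2l1, Mcl1, Bax and Bid), and without sgNC replicate 2, 2 passed (Bcl2l1 and Bak1). The 2 sgNC libraries without IFN-γ had a chi-square of counts per degree of freedom of 16.8, against 1.81 to 5.47 within the other cell groups. The part of this spread in these calls was not tested.

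The response to IFN-γ differed between sgUba1 and sgNC cells for Bcl2l1 alone among the members (-0.29 (SE 0.070, adjusted p = 0.0424)), with 4.64% of all genes called (0.663% higher and 3.97% lower). Bcl2l1 was higher with IFN-γ in both sgNC libraries and lower in both sgUba1 libraries, as the values above show, but the call was lost without any of 6 of the 8 libraries and with DESeq2-type size factors. Bax passed there without sgNC replicate 1 and Bak1 without sgNC replicate 2. TAK-243 changed the response of no member by edgeR, with 2.38% of genes called (0.371% higher and 2.01% lower) and 3 members at an unadjusted p under 0.05. Bbc3 was closest to the threshold (-1.21 (SE 0.35, adjusted p = 0.0586)), and its call was made without the filter on low counts, with the replicate block and without untreated replicate 1 (log2 difference −1.90). Pmaip1 passed there without TAK-243 replicate 2 (log2 difference 0.33).

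In the tumors, few members changed. Bid was higher in the Myc-CaP tumors labelled sgUba1, and no member passed in the B16-BL6 tumors, with Uba1 OE or with TAK-243. The background was low as well, at 3.04% of genes called in Myc-CaP with sgUba1 (1.15% higher and 1.89% lower), 0.724% in B16-BL6 (0.268% and 0.456%), 0.0269% with Uba1 OE (0.0202% and 0.00673%) and 0.145% with TAK-243 (0.0867% and 0.0578%). In the last 3 of these, 1, 2 and 1 members had an unadjusted p under 0.05 by edgeR, as did 2861 of 17539, 2698 of 14853 and 2587 of 17299 genes tested. DESeq2 called 0, 1 (Pmaip1) and 0. In bulk tumors, fewer cells of a type and less RNA per cell cannot be told apart.

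Bid had 9.01, 9.95 and 8.19 CPM in the Myc-CaP sgNC tumors and 13.8, 13.4, 12.1, 12.4, 13.3, 14.8 and 13.97 CPM in the 7 labelled sgUba1 (log2 fold change 0.57, SE 0.12, adjusted p = 0.0368). All 7 lay above all 3 controls in CPM, including replicates 4 to 7, whose Uba1 CPM was not lower. In the authors' TPM the groups overlapped, at 7.49 to 11.3 TPM in controls and 9.57 to 13.1 TPM in the tumors labelled sgUba1. The call was lost without any of the 3 control tumors or without any of sgUba1 replicates 1, 4, 5, 6 and 7, while the log2 fold change stayed between 0.50 and 0.63. It was also lost without the filter on low counts (adjusted p = 0.0613), with the replicate block (adjusted p = 0.265) and by Bonferroni adjustment. Without replicates 4 to 7 together, a choice made after the data were seen, it was 0.53 with an adjusted p of 0.157, and 1 gene of all passed. Leukocyte markers moved in the same direction: the summed CPM of 4 leukocyte genes ran from 69.8 to 156 in controls and from 137 to 254 in tumors labelled sgUba1, and that of 8 myeloid genes from 222 to 390 and from 387 to 606, with 1 of 4 and 3 of 8 markers called higher. The groups were apart for the sum of 8 T and NK cell genes, at 9.8 to 11.8 and 12.9 to 29.2 CPM, and for that of 8 epithelial and prostate genes, at 1798 to 2381 and 2468 to 3375 CPM. No marker was called in either list (3 and 4 tested). The part of these lists in the Bid result was not tested. In the cultured cells the leukocyte genes summed to at most 0.254 CPM in the sgNC and sgUba1 groups, with Laptm5 at 0 counts. Bid was also higher with sgUba1 in the cells, and whether the rises in cells and tumors share a source was not tested.

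Bcl2l1 and Bak1 were the other members whose groups did not overlap there, 3 of 10 in all against 10.9% of all genes tested. Bcl2l1 had 85.3, 79.7 and 90.3 CPM in controls and 43.9, 46.3, 51.1, 71.4, 69.6, 71.4 and 72.8 CPM in the tumors labelled sgUba1 (log2 fold change -0.48, SE 0.18, adjusted p = 0.139). Its lowest values were those of replicates 1 to 3, and without replicates 4 to 7 its log2 fold change was −0.86 (adjusted p = 0.094). Bak1 had 30.7, 34.6 and 33.2 CPM and 35.7, 44.1, 39.2, 42.5, 41.6, 39.2 and 43.03 CPM (log2 fold change 0.31, SE 0.095, adjusted p = 0.0911) and passed by DESeq2 (adjusted p = 0.0242). Bax had 30.3, 33.8 and 31.8 CPM in replicates 1 to 3 and between 24.5 and 26.7 CPM in replicates 4 to 7, against 25.8, 20.3 and 28.02 CPM in controls, and did not pass (log2 fold change 0.20, SE 0.14, adjusted p = 0.433). Pmaip1 varied widely among the controls, at 144, 37.3 and 74.2 CPM, and the tumors labelled sgUba1, between 86.4 and 118 CPM, lay inside that range.

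In the B16-BL6 tumors 9 members were tested, since Bik was left out by the filter on low counts with 3 to 8 expected counts per tumor. The member nearest to the threshold was Bax, with 59.6, 58.9 and 55.9 CPM in sgNC tumors and 49.7, 48.02, 48.1 and 52.5 CPM in sgUba1 tumors (log2 fold change -0.23, SE 0.061, adjusted p = 0.136). Its groups did not overlap, 1 of 9 members against 15.3% of all genes tested. Pmaip1 had 1.49, 1.62 and 2.33 CPM and 2.52, 2.25, 3.23 and 1.92 CPM (log2 fold change 0.45, SE 0.23, adjusted p = 0.365), and the remaining 7 had log2 fold changes between −0.14 and 0.13. Bid had 30.6, 32.5 and 33.6 CPM and 32.9, 30.4, 30.6 and 28.03 CPM, while its mean TPM was 25.5 with sgNC and 27.5 with sgUba1. Its change in Myc-CaP minus that in B16-BL6 was 0.66 (SE 0.14, adjusted p = 0.0294), where 1.52% of genes were called (0.794% higher and 0.725% lower), and this call was lost without any of 6 of the 17 tumors (Myc-CaP sgNC replicate 3, any B16-BL6 sgNC tumor, or B16-BL6 sgUba1 replicate 2 or 3), without the filter on low counts (adjusted p = 0.0595), with the replicate block (adjusted p = 0.17) and by Bonferroni adjustment. Without Myc-CaP replicates 4 to 7 the difference was 0.62 (adjusted p = 0.0516), and Bcl2l1 passed in its place (−0.82, adjusted p = 0.0111).

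With Uba1 OE, 4 of 10 members did not overlap with EV, against 20.8% of all genes. Pmaip1 had 98.5, 102 and 106 CPM with EV and 75.1, 64.6, 78.1 and 78.9 CPM with Uba1 OE (log2 fold change -0.46, SE 0.092, adjusted p = 0.123), and it passed by DESeq2 (adjusted p = 0.0024) and without OE replicate 1 (adjusted p = 0.036). Bbc3 had 7.2, 5.09 and 5.17 CPM and 9.69, 8.08, 8.62 and 11.8 CPM (log2 fold change 0.71, SE 0.20, adjusted p = 0.157), Bid 9.38, 9.49 and 9.396 CPM and 10.4, 11.9, 12.4 and 10.4 CPM (log2 fold change 0.26, SE 0.14, adjusted p = 0.347), and Bik 3.05, 2.599 and 3.27 CPM and 0.198, 2.43, 2.28 and 1.71 CPM (log2 fold change -0.83, SE 0.54, adjusted p = 0.438). OE replicate 1, the tumor with 2 expected counts of Bik, also had the lowest leukocyte sum of the 7 tumors, at 26.9 CPM against 81.4 to 147 CPM in the others, and the highest skeletal muscle sum, at 541 CPM. The part of these in its values was not tested.

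TAK-243 in mice gave no call among the members by edgeR or DESeq2, and no member's groups were apart, against 2.05% of all genes. Pmaip1, which rose in the cells, had 67.8, 32.7, 70.6, 68.9, 98.6 and 65.7 CPM with vehicle and 37.1, 38.7, 28.5, 43.4 and 67.8 CPM with TAK-243 (log2 fold change -0.64, SE 0.26, adjusted p = 0.274), so that the estimate was below 0. Bcl2l1 had 49.5 to 138 CPM with vehicle (median 65.9) and 42.2, 41.2, 57.1, 59.8 and 76.8 CPM with TAK-243 (log2 fold change -0.54, SE 0.26, adjusted p = 0.349), and without vehicle replicate 5 the log2 fold change was −0.31. Bcl2l11 had 61.5 to 79.6 CPM (median 69.3) and 75.4, 76.9, 69.3, 89.8 and 96.3 CPM (log2 fold change 0.21, SE 0.099, adjusted p = 0.342). For Bbc3 the interval was -0.081 (95% confidence interval -0.32 to 0.16) and for Bcl2 -0.072 (95% confidence interval -0.43 to 0.28); both exclude fold changes of the size measured in cells under the drug. The time between the last dose and collection was not used here, so that no match in exposure can be drawn. Of 4 neutrophil markers, 2 were higher with TAK-243, and their sum ran from 17.9 to 29.7 CPM against 7.88 to 12.3 CPM with vehicle. The sum of 8 epithelial and prostate markers was also apart, at 2741 to 3765 CPM against 1874 to 2624 CPM with vehicle, with none of 4 tested called. The part of either list in the values of the members was not tested.

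**Figure D3:**
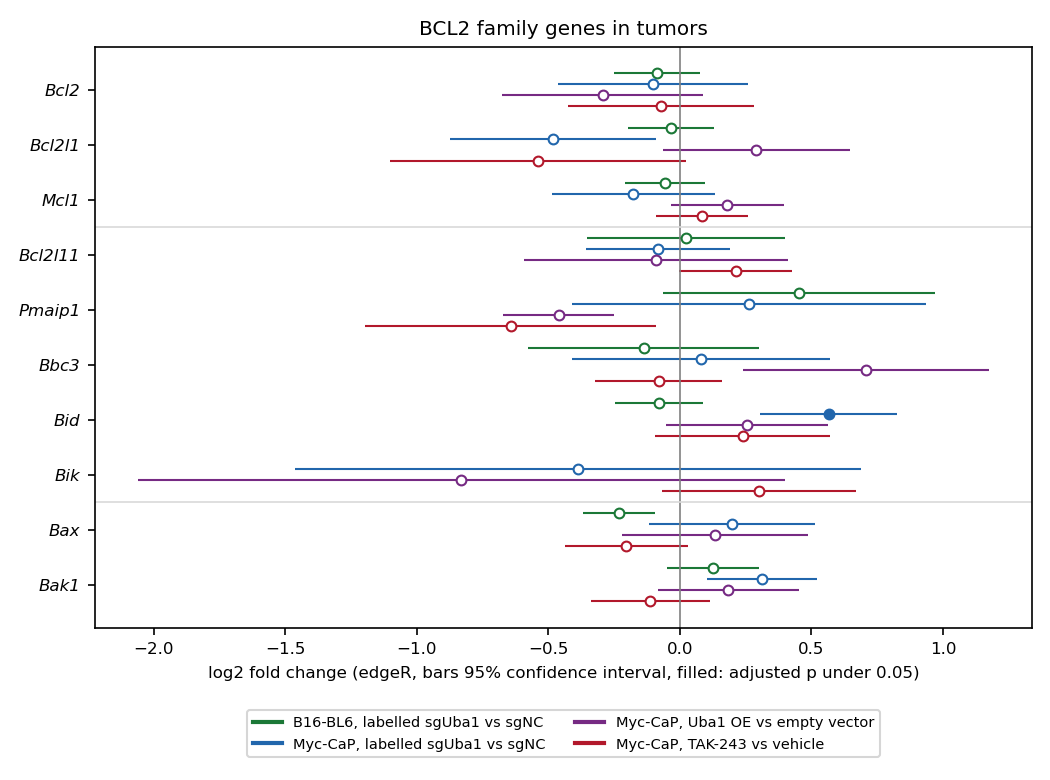
Log2 fold change of each gene in the 4 tumor comparisons with 95% confidence intervals. Only Bid in the Myc-CaP tumors labelled sgUba1 (0.57) is filled, and Bik is not shown for B16-BL6, where it was not tested.

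**Figure D4:**
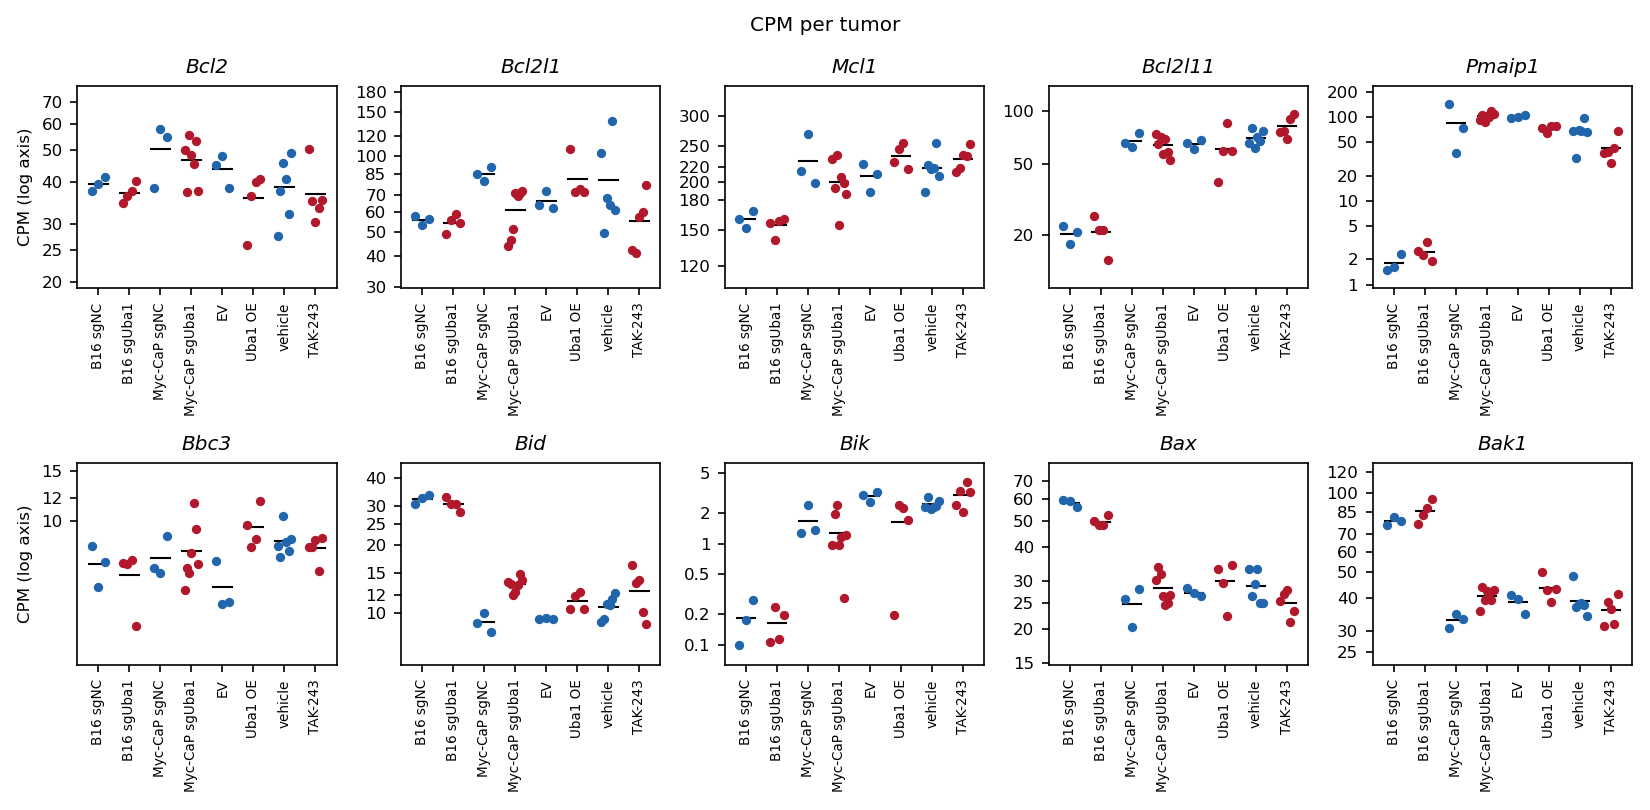
CPM of each gene in every tumor (blue for control groups, red for the others; black lines are group means; log axis, which differs between panels). Pmaip1 is at 1.49 to 3.23 CPM in the 7 B16-BL6 tumors and at 28.5 to 144 CPM in the 28 Myc-CaP tumors, and all 7 Bid values labelled sgUba1 in Myc-CaP lie above the controls.

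Levels between genes were compared on the TPM scale, which corrects for transcript length, as a description without a test. Pmaip1 had the widest range: group means ran from 1.05 TPM in B16-BL6 sgNC tumors to 109 TPM in TAK-243 cells, a ratio of 104. Mcl1 had the narrowest, from 69.1 TPM in B16-BL6 sgNC tumors to 117 TPM in the TAK-243 tumors, a ratio of 1.69. In untreated cells the order was Bcl2l1, Bax, Mcl1, Bak1, Pmaip1, Bid, Bcl2l11, Bcl2, Bik and Bbc3, where Bcl2l1 had 119 and 117 TPM and Bcl2 5.03 and 5.74 TPM. Bax, at 90.97 and 93.4 TPM, and Mcl1, at 90.8 and 90.9 TPM, were neighbours that did not differ beyond their spread, nor did Bik and Bbc3. With TAK-243, Pmaip1 moved from the fifth place to the first, at 107 and 110.3 TPM, and Bcl2 from the eighth to the last, at 2.57 and 2.72 TPM.

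The tumors differed from the cells and from each other. In the 28 Myc-CaP tumors, Bcl2l11 had a median of 29.4 TPM, Bbc3 of 11.2 TPM and Bcl2 of 10.4 TPM, and in the 7 B16-BL6 tumors these were 8.64, 9.07 and 10.2 TPM. Bax was at 101 to 125 TPM in B16-BL6 and at 46.6 to 80.7 TPM in Myc-CaP tumors, Bak1 at 48.2 to 63.8 and 20.6 to 32.6 TPM, and Bid at 23.4 to 31.6 and 6.95 to 17.9 TPM. Pmaip1 was at 0.867 to 1.82 TPM and Bik at 0.194 to 0.713 TPM in B16-BL6, so that these 2 BH3-only genes were the lowest members there. The models differ in tissue, strain, sex of the host and sequencing experiment, which cannot be told apart. When counts were divided by the annotated exon length instead, Mcl1, Pmaip1 and Bak1 came out higher by a median factor of 1.97, 1.96 and 1.96, which put Mcl1 before Bcl2l1 in every cell group without TAK-243.

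**Figure D5:**
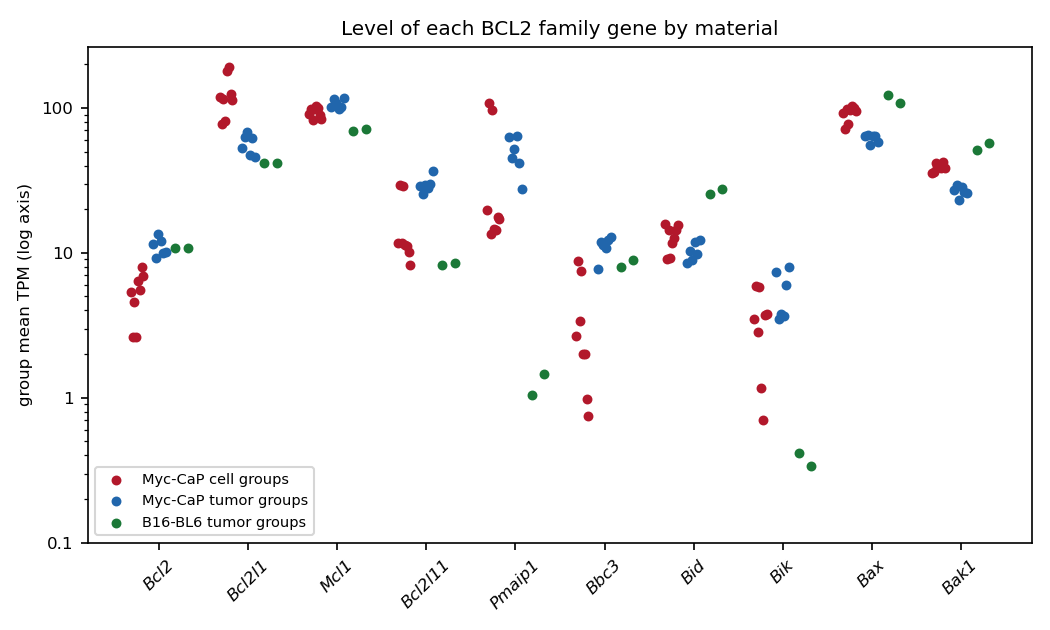
Group mean TPM of each gene on a log axis for the 8 Myc-CaP cell groups, 6 Myc-CaP tumor groups and 2 B16-BL6 tumor groups. Pmaip1 spans 1.05 to 109 TPM, while Mcl1 spans 69.1 to 117 TPM.

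Some counts may include reads of overlapping genes, since the use of strand in counting is not stated in the sources used here. Bcl2 (chr1:106538178-106714274, minus strand, GRCm38) overlaps an antisense transcript, Bak1 (chr17:27019810-27029009, minus strand) lies across the opposite-strand gene Ggnbp1, Bid (chr6:120891930-120916853, minus strand) meets the opposite-strand gene Bcl2l13, Bax (chr7:45461697-45466898, minus strand) shares its strand with the gene model Gm45808, and Bik (chr15:83526862-83544634, plus strand) overlaps a pseudogene on the other strand. On the same strand, Bcl2 also overlaps Mir3473f and Gm37053, and Bid overlaps Gm44260. The pseudogene Gm17812 lies on the strand opposite to Bid. Bcl2l11, Bcl2l1, Mcl1, Bbc3 and Pmaip1 overlap no other annotated gene.

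Further genes were read from a list of 20, made up of other BCL2 family genes and of genes linked to the family, such as Tmbim6 and Moap1. With TAK-243 in cells, 5 of 12 tested were higher and 3 lower (66.3% of all genes called), led by Bcl2l15 (2.94 on the log2 scale, from 0.191 and 0.2496 to 1.47 and 2.08 CPM), the mitophagy receptor Bnip3l (1.77), the ER membrane protein gene Tmbim6 (0.86) and the BAX-binding Moap1 (0.78). With sgUba1, 3 of 14 tested were higher and 4 lower (29.7% of all genes), among them Bok (3.28, from 0.0737 and 0.0653 to 0.6203 and 0.789 CPM), Bnip3 (-1.35), Bmf (-0.86) and Bnip3l (-0.61). Bnip3l thus rose with the drug and fell with sgUba1, and the difference was 2.36 (SE 0.087, adjusted p = 4.71e-14). In tumors only Bcl2a1b was called, in the Myc-CaP tumors labelled sgUba1 (log2 fold change 1.12, SE 0.23, adjusted p = 0.0362). It is a pro-survival gene of leukocytes with near-identical copies between which reads can be split, and it was at 0 CPM in all 16 cell libraries.

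Of 18 genes of the mitochondrial apoptosis machinery, 6 of 16 tested were higher and 6 lower with TAK-243 in cells, near the 66.3% of all genes called. Apaf1, the scaffold of the apoptosome, was higher (0.80), whereas the initiator caspase gene Casp9 (-0.84), the nuclease inhibitor gene Dffa (-0.94) and the mitochondrial protease gene Htra2 (-1.1) were lower, and the median was 0.0095 against 0.027 over all genes. With sgUba1, 5 of 16 were higher and 2 lower (29.7% of all genes), with Dffb at 0.41, Diablo at -0.37 and Dffa at 0.27. None of the 17 or 18 tested passed in any tumor comparison.

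Among 14 enzymes known to act on BCL2 family proteins, Fbxo10, an F-box protein known to target BCL2, fell with TAK-243 in cells from 21.2 and 19.7 CPM to 5.27 and 4.57 CPM (log2 fold change -2.04, SE 0.14, adjusted p = 4.97e-14), and Fbxw7 (0.68), the deubiquitinase gene Usp9x (0.68) and Itch (0.52) rose, in all 4 of 10 higher and 1 lower against 66.3% of all genes. With sgUba1 in cells 2 of 11 were higher and 1 lower against 29.7%. In the Myc-CaP tumors labelled sgUba1, Fbxo10 was higher (log2 fold change 0.80, SE 0.17, adjusted p = 0.0369) and so was Rnf144b, an E3 ligase known to act on BAX (log2 fold change 3.17, SE 0.71, adjusted p = 0.043), 2 of 13 tested. Rnf144b had 3.43, 3.22 and 1.93 CPM in controls and 12.9, 12.5, 5.19, 36.00, 22.6, 48.9 and 42.5 CPM in the 7 tumors labelled sgUba1, all above the controls and highest in replicates 4 to 7, and at most 0.0625 CPM in any cell library.

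Of 16 transcription factors known to control BCL2 family genes, 10 of 15 tested were higher and 3 lower with TAK-243 in cells (32.3% and 34% of all genes), with a median of 0.60 against 0.027 over all genes. The stress-response genes Ddit3 (CHOP) and Atf3 went from 1.91 and 1.87 to 27.8 and 27.7 CPM (3.87) and from 7.78 and 6.99 to 74.6 and 71.3 CPM (3.31), Myc fell from 675 and 661 to 109 and 104 CPM (-2.64), and Jun rose (1.32). Foxo1 and Foxo3, named here because of the letters printed above and after their values were seen, had log2 fold changes of 0.60 (adjusted p = 1.91e-06) and -0.11 (adjusted p = 0.0696). With sgUba1, 4 of 15 were higher and 3 lower (16.2% and 13.6% of all genes), with Ddit3 at -0.57, Atf4 at -0.56 and Hif1a at 0.25. With IFN-γ in untreated cells, 11 were higher and 1 lower (19.6% and 9.39% of all genes), among them Irf1 (1.63), an interferon-induced transcription factor. No factor passed in any of the 4 tumor comparisons.

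In the 8 comparisons of sgUba1, Uba1 OE or TAK-243 with its control, the members called most often were Bid (5), Bcl2l1 (4) and Bcl2 (4). Over the 16 group means, with the mean of each experiment removed, the genes closest in pattern among 11678 were Cyb561d2 (Pearson r = 0.96) and Mff (0.95) for Bid, Rprd1b (0.98) and Nup188 (0.98) for Bcl2l1, and Mettl7a1 (0.99) and Oxct1 (0.98) for Bcl2. These correlations are across group means that share control libraries within an experiment and are given as a description.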

How the data were processed

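RNA was measured in 51 libraries. The authors deposited expected counts per gene, estimated by kallisto on mm10 per the submitters' processing notes, and the authors' TPM values (scaled for transcript length and library size), which were used to compare levels between genes; versions and the use of strand are not given in the sources used here. The library kit is described as ribosomal depletion in 1 source and poly-A selection in another. Expected counts were rounded to whole numbers, although the design had assumed counts. Each comparison was fitted over all genes with edgeR 4.0.16 (R 4.3.3; quasi-likelihood test, TMM factors, filterByExpr, Benjamini-Hochberg, threshold 0.05), in tumors with the groups compared and in cells with all 8 libraries of an experiment. The differences of sgUba1 between tumor models and between drug and sgUba1 were fitted over the 17 tumors or 16 cell libraries concerned. CPM used TMM factors.

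Alternatives were RLE factors, no filter on low counts, DESeq2 1.42.0, limma-voom 3.58.1, a replicate block, only the groups compared, Bonferroni adjustment and each library left out. The members and lists were chosen with earlier results of these data known. From each list, genes that passed were named, at most 4 a comparison by absolute log2 fold change. The tests were checked on simulated counts. Of 75 replicate pairs, 0 held identical values. Total counts of 8652097 to 38032395 limit the precision of Bik and Bbc3, with few reads per library. Of the gene IDs, 39867 of 40077 matched the annotation used for positions (GENCODE M21).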

Additional observations from a re-analysis of the deposited data

Results flagged for a closer look

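In 6 of 50 sets of values (a gene in a group of 4 to 7 tumors), 1 tumor lay far from the others by Dixon's test, which chance gives in about 1 of 20. Uba1 OE replicate 1 had 107 CPM of Bcl2l1 against 72.1 to 73.9 CPM in the other OE tumors, and 0.198 CPM of Bik against 1.71 to 2.43 CPM. Its skeletal muscle markers summed to 541 CPM and its leukocyte markers to 26.9 CPM, and their part in these values was not tested. Vehicle replicate 2 had 32.7 CPM of Pmaip1 against 65.7 to 98.6 CPM, and vehicle replicate 1 had 48.3 CPM of Bak1 against 34.2 to 38.1 CPM. Bbc3 had 4.23 CPM in B16-BL6 sgUba1 replicate 4 against 7.01 to 7.26 CPM, a tumor whose skeletal muscle markers summed to 289.9 CPM, and 6.64 CPM in TAK-243 tumor replicate 4 against 8.07 to 8.71 CPM.

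For 2 results the effect of the same contrast differed between groups by the test of the difference itself. The response of Bcl2l1 to IFN-γ was lower in sgUba1 than in sgNC cells by a log2 difference of -0.29, with 2 of 2 sgNC libraries higher and 2 of 2 sgUba1 libraries lower with IFN-γ. The effect of sgUba1 on Bid was higher in Myc-CaP than in B16-BL6 tumors by a log2 difference of 0.66.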

How the results depend on the processing

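Counts of members called are listed for settings in which they moved by over 1.5 times or to or from 0. Smaller changes are left out of that list. Among these, Bonferroni also ended the Bax call in TAK-243 cells and in TAK-243 minus sgUba1. It ended the Bbc3 and Bak1 calls in TAK-243 cells with IFN-γ as well. DESeq2 ended the Bcl2l11 call for IFN-γ in untreated cells. Without the filter gave 0 (Myc-CaP sgUba1), 1 (IFN-γ in sgNC), 1 (IFN-γ by TAK-243) and 0 (Myc-CaP minus B16-BL6). DESeq2 gave 2 (Myc-CaP sgUba1) and 1 (Uba1 OE). The replicate block gave 0 (Myc-CaP sgUba1), 1 (IFN-γ in sgNC), 1 (IFN-γ by TAK-243) and 0 (Myc-CaP minus B16-BL6). Myc-CaP replicates 4 to 7 left out gave 0 (Myc-CaP sgUba1). Bonferroni gave 0 (Myc-CaP sgUba1), 1 (sgUba1 cells), 1 (sgUba1 cells with IFN-γ), 1 (IFN-γ in untreated), 0 (IFN-γ by sgUba1) and 0 (Myc-CaP minus B16-BL6). Limma-voom gave 1 (IFN-γ in sgNC). RLE factors gave 0 (IFN-γ by sgUba1). With 1 library left out, counts ran from 0 to 0 (B16-BL6 sgUba1), from 5 to 9 (sgUba1 cells with IFN-γ), from 8 to 8 (TAK-243 cells with IFN-γ), from 0 to 2 (IFN-γ by sgUba1), from 0 to 1 (IFN-γ by TAK-243), from 3 to 5 (sgUba1 cells), from 5 to 6 (TAK-243 minus sgUba1), from 6 to 8 (TAK-243 cells), from 0 to 1 (Myc-CaP sgUba1), from 0 to 0 (TAK-243 tumors), from 0 to 1 (Uba1 OE), from 0 to 4 (IFN-γ in sgNC), from 0 to 1 (Myc-CaP minus B16-BL6) and from 4 to 6 (IFN-γ in untreated). Signs changed only for log2 values that passed no test with all libraries: limma-voom, Bcl2l11 -0.000172 (B16-BL6 sgUba1), Bcl2 0.0094 (Myc-CaP minus B16-BL6) and Pmaip1 0.012 (Myc-CaP minus B16-BL6). The replicate block, Bcl2l11 -0.020 (B16-BL6 sgUba1), Bcl2l11 0.050 (Myc-CaP sgUba1), Bbc3 -0.21 (Myc-CaP sgUba1), Bik 0.061 (Myc-CaP sgUba1), Bcl2 0.0036 (TAK-243 tumors), Bcl2 0.023 (Myc-CaP minus B16-BL6), Mcl1 0.034 (Myc-CaP minus B16-BL6), Bcl2l11 0.076 (Myc-CaP minus B16-BL6), Pmaip1 0.035 (Myc-CaP minus B16-BL6) and Bik 0.086 (Myc-CaP minus B16-BL6). Myc-CaP replicates 4 to 7 left out, Bcl2l11 0.044 (Myc-CaP sgUba1), Bbc3 -0.22 (Myc-CaP sgUba1), Bik 0.090 (Myc-CaP sgUba1), Bcl2 0.011 (Myc-CaP minus B16-BL6), Mcl1 0.013 (Myc-CaP minus B16-BL6), Bcl2l11 0.027 (Myc-CaP minus B16-BL6), Bbc3 -0.079 (Myc-CaP minus B16-BL6) and Bik 0.25 (Myc-CaP minus B16-BL6). Without the filter, Bak1 -0.011 (TAK-243 cells) and Pmaip1 0.0027 (IFN-γ in sgNC). Only the groups compared, Bak1 -0.0035 (TAK-243 cells). RLE factors, Mcl1 0.0077 (TAK-243 cells with IFN-γ) and Bcl2 0.012 (Myc-CaP minus B16-BL6). DESeq2, Mcl1 0.0080 (TAK-243 cells with IFN-γ) and Bcl2 0.012 (Myc-CaP minus B16-BL6). With 1 library left out, the sign changed for Bak1 (sgUba1 cells with IFN-γ, -0.024 to 0.075), Bak1 (IFN-γ by sgUba1, -0.21 to 0.036), Bak1 (sgUba1 cells, -0.031 to 0.22), Bak1 (TAK-243 minus sgUba1, -0.23 to 0.013), Bak1 (TAK-243 cells, -0.080 to 0.044), Bak1 (IFN-γ in sgNC, -0.028 to 0.22), Bax (IFN-γ by TAK-243, -0.32 to 0.037), Bax (sgUba1 cells, -0.090 to 0.15), Bbc3 (B16-BL6 sgUba1, -0.26 to 0.010), Bbc3 (Myc-CaP sgUba1, -0.039 to 0.23), Bbc3 (IFN-γ in sgNC, -0.038 to 0.35), Bcl2 (IFN-γ by sgUba1, -0.083 to 0.10), Bcl2 (Myc-CaP sgUba1, -0.27 to 0.0018), Bcl2 (Myc-CaP minus B16-BL6, -0.17 to 0.12), Bcl2l1 (B16-BL6 sgUba1, -0.079 to 0.0083), Bcl2l1 (IFN-γ by TAK-243, -0.089 to 0.040), Bcl2l11 (B16-BL6 sgUba1, -0.10 to 0.16), Bcl2l11 (Uba1 OE, -0.31 to 0.069), Bcl2l11 (Myc-CaP minus B16-BL6, -0.23 to 0.018), Bik (IFN-γ by TAK-243, -0.38 to 0.24), Bik (IFN-γ in sgNC, -0.91 to 0.17), Bik (Myc-CaP minus B16-BL6, -0.62 to 0.12), Mcl1 (TAK-243 cells with IFN-γ, -0.065 to 0.016), Mcl1 (IFN-γ by sgUba1, -0.052 to 0.019), Mcl1 (IFN-γ by TAK-243, -0.075 to 0.035), Mcl1 (TAK-243 cells, -0.027 to 0.040), Mcl1 (Myc-CaP minus B16-BL6, -0.20 to 0.034), Pmaip1 (Myc-CaP sgUba1, -0.10 to 0.87), Pmaip1 (IFN-γ in sgNC, -0.048 to 0.046) and Pmaip1 (Myc-CaP minus B16-BL6, -0.53 to 0.43), none of them called with all libraries. Counts of all genes called moved by over 1.5 times in some settings, for B16-BL6 sgUba1 127 (without the filter 204, DESeq2 532, Bonferroni 24), Myc-CaP sgUba1 492 (DESeq2 1862, limma-voom 300, the replicate block 2, Myc-CaP replicates 4 to 7 left out 1, Bonferroni 3), Uba1 OE 4 (without the filter 33, DESeq2 723, limma-voom 2, the replicate block 0, Bonferroni 1), TAK-243 tumors 25 (without the filter 45, DESeq2 558, the replicate block 8, Bonferroni 3), sgUba1 cells 4618 (Bonferroni 511), sgUba1 cells with IFN-γ 6119 (Bonferroni 974), TAK-243 cells 9644 (Bonferroni 5793), TAK-243 cells with IFN-γ 9918 (Bonferroni 6036), IFN-γ in sgNC 603 (RLE factors 292, without the filter 1460, DESeq2 395, only the groups compared 30, Bonferroni 29), IFN-γ in untreated 4216 (DESeq2 2651, Bonferroni 1000), IFN-γ by sgUba1 720 (RLE factors 414, without the filter 1487, Bonferroni 15), IFN-γ by TAK-243 347 (DESeq2 219, Bonferroni 57), Myc-CaP minus B16-BL6 266 (without the filter 115, DESeq2 1197, the replicate block 11, Bonferroni 11) and TAK-243 minus sgUba1 8692 (Bonferroni 3935). The replicate number did not pair the samples, since no comparison had every pair's correlation over 0.1 (in B16-BL6 they were 0.15, -0.049 and 0.16), and the block ended the Bid call in Myc-CaP and in the difference between models. Dividing counts by annotated exon length in place of TPM moved 108 of 160 levels. DESeq2-type and TMM scaling differed by at most 0.0244 (log2) in the median of all genes. Labels do not say whether replicates are independent cultures, and the cause of the changes between settings was not tested.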
